A study of Mus musculus with 12 samples.

Results

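The smooth muscle contractile genes are the 10 genes Acta2, Actg2, Myh11, Mylk, Myl9, Tagln, Cnn1, Des, Tpm2 and Synpo2, picked by name from the 25705 genes of an RNA-sequencing table of mouse colonic adenomas. All 10 are listed, each under a single gene ID, and all 10 reached at least 1 FPKM in at least 3 of the 12 libraries, as did 15150 genes in all. FPKM divides the fragments of a gene by its transcript length and by the number mapped in the library, so levels of different genes can be set side by side. The study asked how gene expression in adenomas differs between genotypes of Tet1 and Tdg, which act in active DNA demethylation.

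The adenomas came from C57BL/6J mice with the ApcMin/+ genotype, which carry a truncating allele of the tumour suppressor Apc and form intestinal adenomas, killed at 150 to 160 days. Tet1-null adenomas (Tet1-/- Tdg+/+ ApcMin/+) carry mutant copies alone of Tet1, which encodes an enzyme that oxidises 5-methylcytosine. Double-heterozygous adenomas (Tet1+/- TdgN151A/+ ApcMin/+) carry 1 mutant copy of each gene. Tdg-heterozygous adenomas (Tet1+/+ TdgN151A/+ ApcMin/+) have 1 altered copy of Tdg, the glycosylase that removes oxidised cytosines. Control adenomas (Tet1+/+ Tdg+/+ ApcMin/+) share the Apc mutation and are wild type at the other loci. Each group has 3 libraries, named here by the numbers 0 to 2 of the table's columns. The labels do not say whether the 3 came from separate animals, so p-values measure the spread between these samples, which may be technical.

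Smooth muscle cells shorten when calcium and calmodulin switch on myosin light chain kinase, which phosphorylates the regulatory light chain and lets smooth muscle myosin pull on actin filaments. Tropomyosin, calponin and transgelin sit on those thin filaments, while desmin and synaptopodin-2 belong to the structures that hold the filaments in place. In the colon these genes mark the muscularis mucosae under the epithelium, the muscle wall and the vessel walls, and several of them (Acta2, Tagln, Myl9) are also made by myofibroblasts and pericytes. Serum response factor, with its coactivator myocardin, drives many of them through a DNA motif called the CArG box.

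The sum of FPKM ran from 663551 to 977282 per library, and the depth in reads is unknown because the table holds no counts. Tet1, the gene mutated in the first group, ranged from 0.163 to 0.621 FPKM in Tet1-null, from 0.127 to 0.486 in double-heterozygous, from 0.223 to 0.492 in Tdg-heterozygous and from 0.403 to 0.478 FPKM in control libraries. These ranges overlap at a low level, so they do not check the labels, and the part of the gene that the allele lacks is not given in the sources used here. A pair of libraries stood apart in the Wnt feedback and stem genes, a group of 9 that is high in Apc-mutant epithelium. Their summed FPKM was 62.1 in Tet1-null library 1 and 129 in Tdg-heterozygous library 2, against 334 to 919 in the other 10. Markers of epithelium summed to 15892 FPKM in Tet1-null library 1 and 19181 FPKM in Tdg-heterozygous library 2, against 4018 to 11094 FPKM in the others, and 2 of these 12 markers were highest in Tet1-null library 1. The differences between groups that rest on these libraries are given with and without them.

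The contractile genes were set apart by a single adenoma library. All 10 had their highest FPKM in Tet1-null library 1, where 16.4% of the 15150 tested genes had theirs. Summed over the 10 genes, Tet1-null libraries reached 134, 932 and 121 FPKM, and double-heterozygous ones 171, 176 and 187 FPKM. The sum was 163, 229 and 101 FPKM in the Tdg-heterozygous libraries, against 130, 193 and 271 FPKM in the controls. The other Tet1-null libraries therefore lay at the low end of the 12, and the lowest sum of all was that of Tdg-heterozygous library 2. In bulk RNA, fewer cells of a type and less RNA per cell cannot be told apart.

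**Figure D1:**
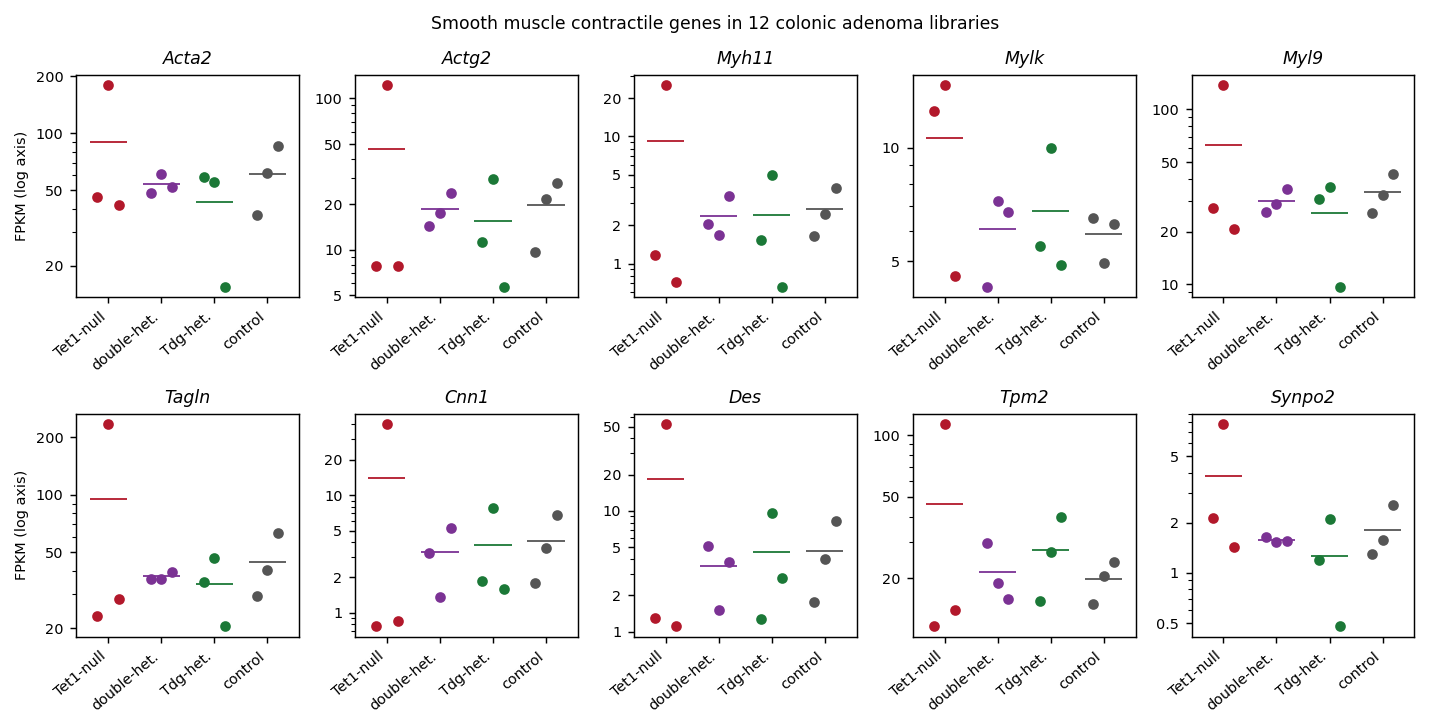
FPKM of each of the 10 contractile genes on a log axis, 1 point per library (numbers 0, 1 and 2 from left to right within a group), with a line at the mean of the 3 libraries of a group. In every panel the highest point is Tet1-null library 1, with 181 FPKM for Acta2 and 25.5 FPKM for Myh11.

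Among the genes of the thick filament and its switch, Myh11 varied most and Mylk least. Myh11, the smooth muscle myosin heavy chain on the minus strand of mm10 at chr16:14194535-14291372, had 1.16, 25.5 and 0.716 FPKM in Tet1-null libraries 0, 1 and 2. It had 2.06, 1.69 and 3.40 FPKM in double-heterozygous and 1.52, 5.01 and 0.654 FPKM in Tdg-heterozygous libraries, against 1.64, 2.47 and 3.93 FPKM in controls. Tet1-null library 1 was thus 15.1 times the median of the other 11 libraries, while the remaining Tet1-null libraries were below all 3 controls.

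Myl9, the regulatory light chain that the kinase phosphorylates (plus strand, chr2:156775420-156781658), was more abundant, with 27.2, 139 and 20.8 FPKM in Tet1-null libraries. Its values were 26.0, 28.9 and 35.2 FPKM in double-heterozygous and 30.8, 35.9 and 9.64 FPKM in Tdg-heterozygous libraries, against 25.7, 32.3 and 42.6 FPKM in controls. A high library and a low one, Tet1-null 1 and Tdg-heterozygous 2, stood outside the 20.8 to 42.6 FPKM held by the others. Mylk, the kinase itself (plus strand, chr16:34745210-35002420), had 12.5, 14.7 and 4.57 FPKM in Tet1-null libraries. It had 4.27, 7.22 and 6.75 FPKM in double-heterozygous and 5.48, 10.01 and 4.89 FPKM in Tdg-heterozygous libraries, against 6.52, 4.96 and 6.28 FPKM in controls. For Mylk, Tet1-null library 0 was high too, at 2.11 times the control mean. Relative to Myl9, Mylk was at 45.9% in that library, 10.6% in Tet1-null library 1 and 50.7% in Tdg-heterozygous library 2. Mylk also has transcripts outside smooth muscle, and the table does not separate them.

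The thin-filament genes included the most abundant of the set, Acta2 and Tagln, and one of the less abundant, Cnn1. Acta2, the smooth muscle alpha-actin (minus strand, chr19:34241090-34255590), had 46.4, 181 and 41.6 FPKM in Tet1-null libraries. It had 48.3, 61.3 and 52.2 FPKM in double-heterozygous and 59.0, 55.6 and 15.4 FPKM in Tdg-heterozygous libraries, against 36.9, 61.7 and 85.3 FPKM in controls. Apart from Tet1-null library 1 and Tdg-heterozygous library 2, the groups shared 1 range. Actg2, the enteric gamma-actin typical of visceral muscle (minus strand, chr6:83512905-83536265), had 7.78, 123 and 7.77 FPKM in Tet1-null libraries. Actg2 had 14.5, 17.6 and 23.8 FPKM in double-heterozygous and 11.2, 29.6 and 5.67 FPKM in Tdg-heterozygous libraries, against 9.68, 21.6 and 27.7 FPKM in controls. Tet1-null libraries 0 and 2 were nearly equal and lay below every control and double-heterozygous library.

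Tagln, which encodes the actin-binding protein transgelin (minus strand, chr9:45929619-45936058), had 23.1, 235 and 28.4 FPKM in Tet1-null libraries. Its level was 36.1, 36.2 and 39.6 FPKM in double-heterozygous and 34.9, 46.6 and 20.4 FPKM in Tdg-heterozygous libraries, against 29.5, 40.1 and 63.2 FPKM in controls. The double-heterozygous libraries were the most alike, with an SD of 1.97 FPKM around a mean of 37.3 (n = 3). Tpm2, a tropomyosin (minus strand, chr4:43514711-43523765), had 11.7, 113 and 13.9 FPKM in Tet1-null libraries. Tpm2 had 29.6, 18.9 and 15.8 FPKM in double-heterozygous and 15.4, 26.8 and 39.8 FPKM in Tdg-heterozygous libraries, against 15.0, 20.6 and 24.1 FPKM in controls. Alone among the 10, Tpm2 was above its mean over the 12 libraries, in log2(FPKM + 1), in Tdg-heterozygous library 2, its second highest library. It reached 195% of Tagln there, against 38.1 to 81.9% in the other 11. The remaining members were not all at the low end there, with Des at rank 7 and Cnn1 at rank 9 from the highest. Cnn1, the calponin of differentiated smooth muscle (plus strand, chr9:22099216-22109630), had 0.765, 40.4 and 0.857 FPKM in Tet1-null libraries. Cnn1 had 3.22, 1.35 and 5.29 FPKM in double-heterozygous and 1.85, 7.85 and 1.58 FPKM in Tdg-heterozygous libraries, against 1.80, 3.57 and 6.78 FPKM in controls. At 21.8 times the median of the other 11 libraries, Cnn1 had the largest multiple of the 10 in Tet1-null library 1, and Mylk the smallest at 2.34 times.

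Of the structural genes, Des, the muscle intermediate filament desmin (plus strand, chr1:75360329-75368579), had 1.29, 52.6 and 1.11 FPKM in Tet1-null libraries. Des had 5.15, 1.52 and 3.79 FPKM in double-heterozygous and 1.28, 9.54 and 2.80 FPKM in Tdg-heterozygous libraries, against 1.76, 3.97 and 8.30 FPKM in controls. Des in Tet1-null library 1 was thus 5.51 times its level in the next highest library, Tdg-heterozygous 1. Synpo2, the actin-bundling protein synaptopodin-2 (minus strand, chr3:123076519-123236149), was the lowest of the set, with 2.12, 7.84 and 1.44 FPKM in Tet1-null libraries. Synpo2 had 1.65, 1.54 and 1.56 FPKM in double-heterozygous and 1.20, 2.10 and 0.477 FPKM in Tdg-heterozygous libraries, against 1.29, 1.57 and 2.56 FPKM in controls.

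The DNA before the RefSeq transcription starts was read to show the CArG boxes of the members, a 10-base motif of CC, 6 bases that are A or T, and GG. RefSeq promoters (GRCm38.p6) are given for Acta2, Mylk, Myl9, Cnn1, Des, Tpm2 and Synpo2, and 250 bases before each start were searched on both strands. A full match was found in 1 of these 7, in Myl9, and a match with 1 mismatch in the A or T run was found in Myl9 and Acta2. Of all 32817 promoters in the table, 1.47% hold a full match and 8.60% a full or relaxed one. The sites are shown 5′ to 3′ on the gene's strand with the motif in capitals and 10 bases on either side. Distances are counted from the RefSeq start, which is base 156775464 of chromosome 2 for Myl9 and base 34255373 of chromosome 19 for Acta2. Both starts lie inside the gene bounds given above, which are the outer ends of all annotated transcripts, so the Acta2 sites also lie inside those bounds. The full match begins 161 bases before the RefSeq start of Myl9, and the relaxed one 99 bases before it. In Acta2 the relaxed matches begin 84 and 34 bases before the RefSeq start.
Myl9, full match, plus strand, chr2:156775293-156775322: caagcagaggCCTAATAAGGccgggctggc
Myl9, 1 mismatch, plus strand, chr2:156775355-156775384: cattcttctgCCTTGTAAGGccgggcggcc
Acta2, 1 mismatch, minus strand, chr19:34255438-34255467: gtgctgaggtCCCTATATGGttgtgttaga
Acta2, 1 mismatch, minus strand, chr19:34255388-34255417: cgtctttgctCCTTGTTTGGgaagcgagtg

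These matches are a description of the letters, and no match in a window of 250 bases says nothing of the factor. Motifs also stand before genes that are not special to muscle, with a full match in 3 of 15 promoters of the non-muscle relatives of the members (20.0%). Among promoters of other contractile genes, 6 of 30 held a full match (20.0%). Myl9 and Acta2, the genes with the sites shown, had 139 and 181 FPKM in Tet1-null library 1, and 9.64 and 15.4 FPKM in Tdg-heterozygous library 2.

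The members had Tet1-null library 1 as their highest library in common, but not the height of that peak. In log2(FPKM + 1), the value in Tet1-null library 1 exceeded the gene's own mean over 12 libraries by 1.00 for Mylk and by 3.43 for Des, the ends of the range. Tdg-heterozygous library 2 held the lowest value of 6 members (Acta2, Actg2, Myh11, Myl9, Tagln and Synpo2), where 17.4% of all tested genes had their lowest. Cnn1 and Tpm2 were lowest in Tet1-null library 0, Des in Tet1-null library 2 and Mylk in double-heterozygous library 0. With Tet1-null library 1 set aside, Tdg-heterozygous library 1 was highest for Actg2, Myh11, Cnn1 and Des. Control library 2 was then highest for Acta2, Myl9, Tagln and Synpo2.

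**Figure D2:**
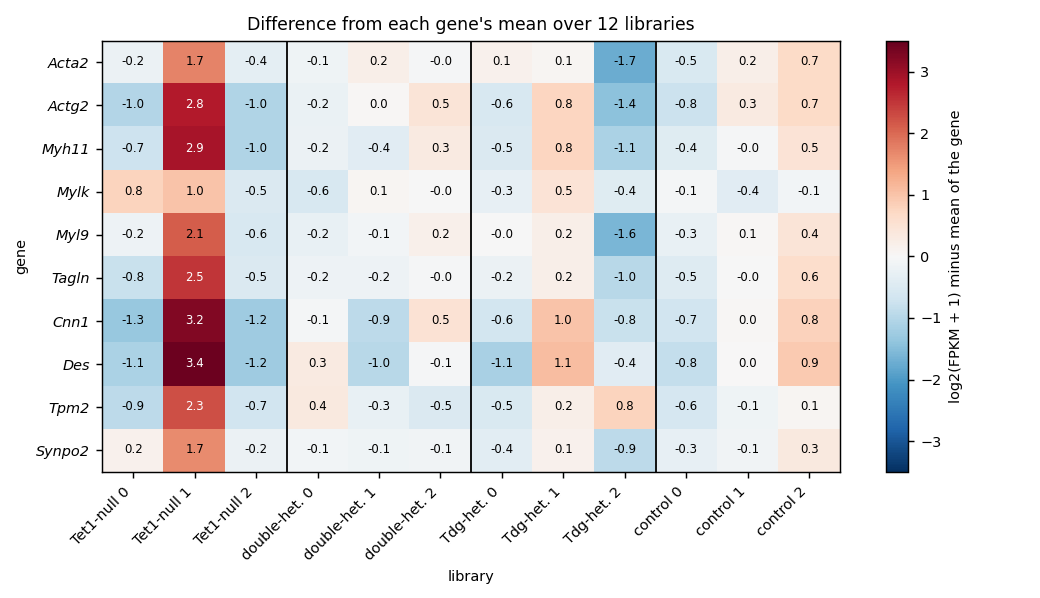
Difference of log2(FPKM + 1) from each gene's mean over the 12 libraries, with genes down the page and libraries across, groups parted by lines. The column of Tet1-null library 1 runs from 1.00 for Mylk to 3.43 for Des, and Tdg-heterozygous library 2 is below the mean for all but Tpm2.

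The proportions between members also differed in that library. Relative to Acta2 in the same library, Actg2 stood at 0.683 in Tet1-null library 1, against 0.168 to 0.532 in the other 11. Des stood at 0.291 of Acta2, against 0.0217 to 0.182, Cnn1 at 0.224, against 0.0165 to 0.141, and Myh11 at 0.141, against 0.0172 to 0.0901. These 4 genes are used as markers of mature smooth muscle, while Acta2 is shared with myofibroblasts. Myl9, also made by myofibroblasts, was above its range too, at 0.768 of Acta2, against 0.472 to 0.698. Tpm2, at 0.627 of Acta2, lay within the 0.251 to 2.58 of the other 11. Whether cell types play a part in these proportions was not tested. Synpo2, at 0.0434 of Acta2, lay within the 0.0203 to 0.0458 of the other libraries, and Mylk, at 0.0814, within 0.0736 to 0.317. Tagln was at 1.30 times Acta2 in Tet1-null library 1 and at 1.32 times in Tdg-heterozygous library 2, against 0.498 to 0.839 in the other 10.

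Set against widely expressed relatives from the same gene families, the muscle forms took a larger share in Tet1-null library 1 than in the rest. Myh11 reached 23.1% of Myh9, a non-muscle myosin heavy chain, against 0.387 to 6.41% in the other 11 libraries. Myl9 reached 62.7% of Myl12a, a non-muscle light chain, against 2.43 to 17.4%. Tagln reached 63.3% of Tagln2, against 3.56 to 24.1%, and Tpm2 28.8% of Tpm1, against 3.83 to 9.94%. Tpm1 is itself listed here with the other contractile apparatus genes, so that pair does not set a muscle form against a non-muscle one. Cnn1 exceeded Cnn2, at 244% of it, against 4.08 to 47.7%. The intermediate filament pair showed the widest gap, with Des at 24.7% of Vim, against 0.171 to 1.88%, and Vim itself at 213 FPKM, near the low end of its 157 to 756 FPKM elsewhere. Set against the highest of the other libraries, the actins differed less. Acta2 was at 7.79% of Actb, against 0.358 to 6.54%, and Actg2 at 5.32%, against 0.132 to 2.71%. The medians of the other 11 were 4.19% for Acta2 and 0.839% for Actg2, so by the median only Acta2 stood out as differing less. The lowest actin ratios were those of Tdg-heterozygous library 2, where Actb was at 4310 FPKM.

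**Figure D3:**
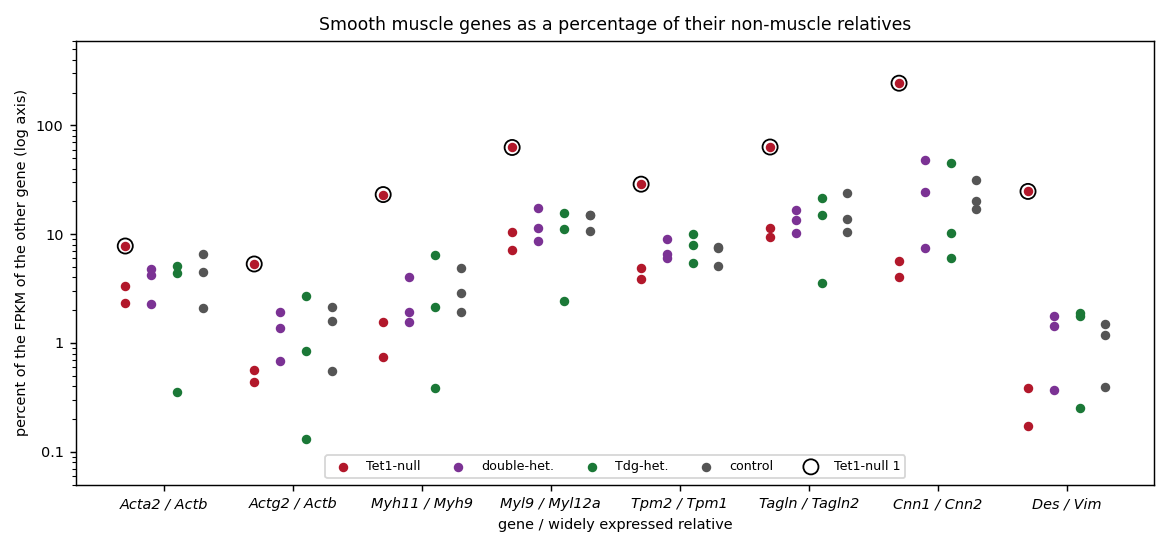
FPKM of 8 contractile genes as a percentage of a widely expressed relative in the same library, on a log axis, 1 point per library and 1 colour per group. Tpm1, the relative of Tpm2, is also a gene of the contractile apparatus list. The ringed points are Tet1-null library 1, which is highest for every pair, from 5.32% for Actg2 over Actb to 244% for Cnn1 over Cnn2.

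The first comparison asked whether Tet1-null adenomas differ from controls. The mean was higher in Tet1-null libraries for all 10 members, but the SD was large. Acta2 averaged 89.5 ± 78.9 FPKM in Tet1-null and 61.3 ± 24.2 FPKM in control libraries (SD, n = 3 each). Des averaged 18.3 ± 29.7 FPKM in Tet1-null and 4.68 ± 3.33 FPKM in control libraries. In the fit over all genes with limma, the difference in log2(FPKM + 1) ran from 0.15 for Cnn1 (SE 1.09) to 0.62 for Mylk (SE 0.39), with a median of 0.36, beside 0.03 over all tested genes. None of the 10 was called at an adjusted p under 0.05 by limma with Benjamini-Hochberg adjustment (adjusted p = 1 for each), beside 0.0132% of all tested genes, and 0 had an unadjusted p under 0.05, beside 1.63%. The groups overlapped for all 10, while 3.44% of tested genes were higher in every Tet1-null library than in any control and 2.2% were lower.

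The sign of this comparison rested on Tet1-null library 1. Without it, 2 of 10 differences were positive, the median was -0.64, and the values ran from -1.36 for Cnn1 (SE 0.63) to 0.33 for Mylk (SE 0.40). Actg2 was then at -1.12 (SE 0.60), Des at -1.20 (SE 0.69), Myh11 at -0.89 (SE 0.50) and Tagln at -0.70 (SE 0.36). Acta2 was at -0.39 (SE 0.53), Myl9 at -0.45 (SE 0.47), Tpm2 at -0.58 (SE 0.39) and Synpo2 at 0.00 (SE 0.32). The members lower in both remaining Tet1-null libraries than in any control numbered 6 (Actg2, Myh11, Tagln, Cnn1, Des and Tpm2), beside 6.46% of all tested genes, and 0 were higher in both, beside 10.3%. This count was made after the values were seen, and all 10 adjusted p-values in this fit by limma were 1.

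**Figure D4:**
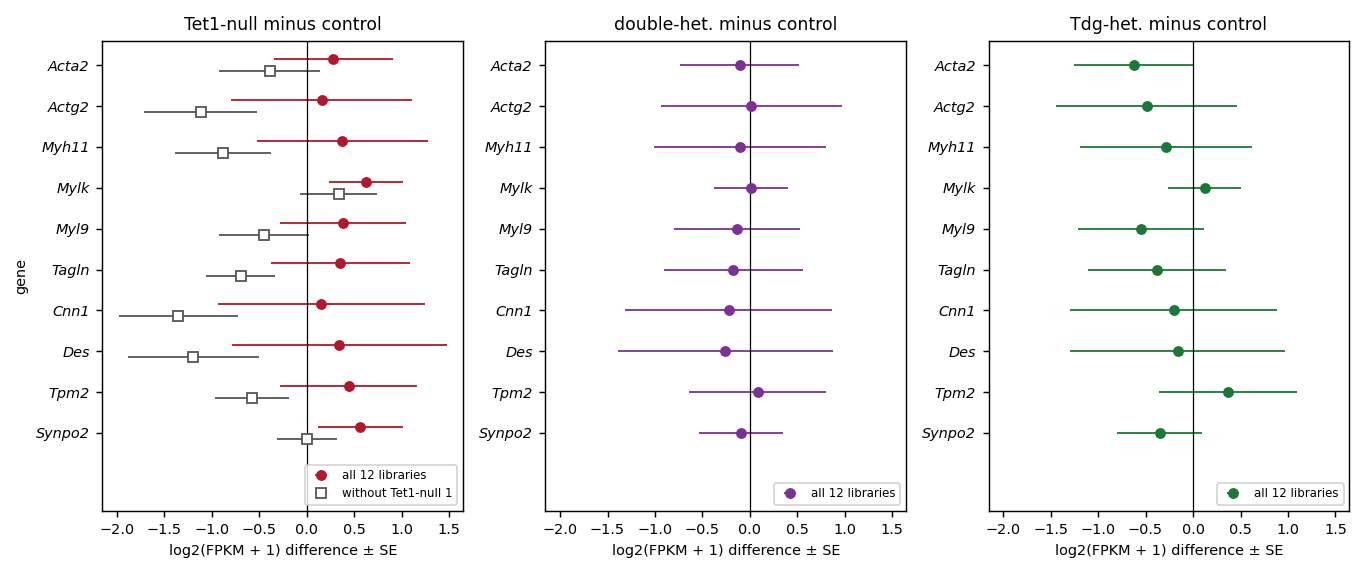
Difference in log2(FPKM + 1) from control for each contractile gene in the 3 comparisons, with bars of 1 SE. In the left panel the filled points use all 12 libraries (0.15 to 0.62) and the open squares leave out Tet1-null library 1 (-1.36 to 0.33).

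Double-heterozygous adenomas had contractile gene levels close to the control means. Tagln averaged 37.3 ± 1.97 FPKM in double-heterozygous and 44.3 ± 17.3 FPKM in control libraries (SD, n = 3 each), and Actg2 18.6 ± 4.75 FPKM in double-heterozygous and 19.6 ± 9.15 FPKM in control libraries. The log2(FPKM + 1) difference ran from -0.26 for Des (SE 1.13) to 0.08 for Tpm2 (SE 0.72). The median was -0.11, beside 0.05 over all tested genes, with 3 differences positive and 7 negative. Without control library 2 all 10 were positive, with a median of 0.14, and without control library 0 the median was -0.36, with 1 positive. None of the 10 was called by limma (adjusted p = 1 for each), beside 0.0198% of all tested genes, and 0 had an unadjusted p under 0.05, beside 1.17%. No member's groups were apart, beside 5.78% of tested genes higher in every double-heterozygous library and 2.01% lower.

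Tdg-heterozygous adenomas had lower values than controls for 8 members and higher ones for Mylk and Tpm2, all within the spread. Acta2 averaged 43.3 ± 24.2 FPKM in Tdg-heterozygous and 61.3 ± 24.2 FPKM in control libraries (SD, n = 3 each), and Tpm2 27.3 ± 12.2 FPKM in Tdg-heterozygous and 19.9 ± 4.62 FPKM in control libraries. The log2(FPKM + 1) difference ran from -0.63 for Acta2 (SE 0.62) to 0.37 for Tpm2 (SE 0.72), with a median of -0.32, beside -0.01 over all tested genes. None of the 10 was called by limma (adjusted p = 1 for each), beside 0.0198% of all tested genes, and 0 had an unadjusted p under 0.05, beside 0.898%. The groups overlapped for all 10, beside 1.61% of tested genes higher in every Tdg-heterozygous library and 2.4% lower. The median was 0.02 without Tdg-heterozygous library 2, the library with low Wnt genes, and -0.77 without Tdg-heterozygous library 1. All 3 comparisons share the control libraries.

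Between the mutant groups, all 10 members had a higher mean in Tet1-null than in double-heterozygous libraries (median difference 0.50 in log2(FPKM + 1)) and than in Tdg-heterozygous libraries (median 0.65). Without Tet1-null library 1 these medians were -0.59 and -0.46. Double-heterozygous minus Tdg-heterozygous differences were positive for 6 members and negative for 4, with a median of 0.19. Without Tdg-heterozygous library 2, 1 of the 10 was positive and the median was -0.13, and without Tdg-heterozygous library 1, 9 were positive and the median was 0.53. In these 3 comparisons limma called 0 of 10 members, beside 0.0198%, 0.0198% and 0% of all tested genes, and 0 had an unadjusted p under 0.05, beside 1.82%, 1.11% and 1.52%. The groups overlapped for all 10 in each. Of all tested genes, 1.56% were higher and 2.38% lower in every Tet1-null than in any double-heterozygous library, 1.98% and 0.944% in Tet1-null against Tdg-heterozygous, and 4.7% and 0.898% in double-heterozygous against Tdg-heterozygous. The lowest unadjusted p was 0.0677, for Synpo2 in Tet1-null minus Tdg-heterozygous (adjusted p = 1 by limma), where the difference was 0.91 (SE 0.45). A test of any difference among the 4 groups by limma also called 0 of 10, beside 0.0264% of tested genes, with the smallest unadjusted p at 0.2762 for Synpo2.

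For 8 members the control mean was the second highest of the 4 group means, and for Mylk and Tpm2 the Tdg-heterozygous one was. No neighbouring groups in these orders differed beyond their spread. The spread within groups set what could be seen. Its residual SD in log2(FPKM + 1) was 1.55 for Des, 1.48 for Cnn1, 1.30 for Actg2 and 1.23 for Myh11, beside a median of 0.33 over all tested genes. For Mylk it was 0.51 and for Synpo2 0.58. Without Tet1-null library 1 it was 0.84 for Des, 0.76 for Cnn1 and 0.43 for Tagln, beside a median of 0.30.

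Other contractile apparatus genes, a list of 24 cytoskeletal and adhesion genes of muscle, had their highest value in Tet1-null library 1 for 10 of the 24. In Tet1-null minus control, limma called 0 of the 19 tested, with 14 differences positive and 5 negative and a median of 0.06. Without Tet1-null library 1, 6 were positive and 13 negative, with a median of -0.06. Of the 4 most abundant, Dstn, an actin-depolymerising factor, had 1094 FPKM in Tet1-null library 1, against 425 to 2096 FPKM elsewhere, and Tpm1 had 393 FPKM, against 264 to 496. Flna, the actin crosslinker filamin A, had 170 FPKM, against 121 to 231, and Csrp1, a LIM-domain protein, 134 FPKM, against 71.6 to 145. None of these 4 broad genes was outside the range of the other libraries. Of the less abundant genes, Synm, Lmod1 and Pgm5 were chosen for their high values after these were seen, and Ldb3 and Dmd, other muscle genes, as a contrast. Synm, an intermediate filament partner of desmin, had 6.05 FPKM in Tet1-null library 1, against 0.188 to 1.00 in the other 11. Lmod1, a nucleator of smooth muscle actin filaments, had 2.49 FPKM, against 0.0443 to 0.774, and Pgm5, an adhesion protein of muscle, 5.94 FPKM, against 0.214 to 1.31. Ldb3, a Z-disc protein, had 4.16 FPKM there, within the 1.95 to 9.38 FPKM of the others, and Dmd, which encodes dystrophin, 9.76 FPKM, also below its highest value elsewhere.

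Regulators of contraction (25 genes in the table) and transcriptional regulators of smooth muscle (12 genes) had their highest value in Tet1-null library 1 for 12 and 4 genes. Limma called 0 of 18 and 0 of 10 tested in Tet1-null minus control, with 15 and 9 differences positive and medians of 0.12 and 0.07. Without Tet1-null library 1, 10 and 3 were positive and the medians were 0.01 and -0.03. Rhoa and Rock2, the GTPase and kinase that keep light chains phosphorylated, had 242 and 31.5 FPKM in Tet1-null library 1, against 175 to 309 and 18.5 to 51.7 FPKM elsewhere. Srf, serum response factor, had 15.4 FPKM there, against 11.7 to 24.8. Myocd, which encodes myocardin and was named after its values were seen, was at 0.287 FPKM there and at most 0.493 FPKM in any library.

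Markers of other cells moved with the members in Tet1-null library 1, and their part in the result was not tested. The 12 fibroblast markers summed to 806 FPKM there, with 7 of 12 at their highest. Their sum was 269 to 806 FPKM in Tet1-null, 240 to 457 in double-heterozygous, 273 to 286 in Tdg-heterozygous and 190 to 521 FPKM in control libraries. The 8 endothelial markers summed to 110 FPKM there, with 7 of 8 at their highest, and ranged from 29.8 to 110 in Tet1-null, 27.0 to 80.9 in double-heterozygous, 41.9 to 50.6 in Tdg-heterozygous and 30.8 to 56.8 FPKM in control libraries. The 8 pericyte markers summed to 75.4 FPKM there, with 4 of 8 at their highest, and ranged from 30.7 to 75.4 in Tet1-null, 21.2 to 59.7 in double-heterozygous, 21.8 to 46.5 in Tdg-heterozygous and 28.4 to 55.7 FPKM in control libraries. These sums were 2.82, 2.45 and 1.89 times the median of the other 11 libraries, beside 5.45 times for the contractile genes. The sum of the 12 epithelial markers was at 2.47 times in the same library, where 2 of the 12 had their highest value. By gene, this multiple ran from 1.01 for Krt18 to 7.73 for Krt20. The epithelial sum was higher still, at 19181 FPKM, in Tdg-heterozygous library 2, where the sum of the members was lowest.

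Markers of other cells of the gut wall gave mixed values. The 12 enteric neuron and glia markers summed to 17.4 FPKM in Tet1-null library 1, with 6 of 12 under 1 FPKM in all libraries, and ranged from 4.31 to 17.4 in Tet1-null, 7.88 to 20.1 in double-heterozygous, 6.84 to 34.9 in Tdg-heterozygous and 6.93 to 10.2 FPKM in control libraries. Vip, a neuropeptide of enteric neurons named after its values were seen, was at 3.59 FPKM in Tet1-null library 1, against 0 to 1.47 FPKM in the other 11. The 3 markers of interstitial cells of Cajal, the pacemaker cells of the gut wall, summed to 93.7 FPKM there, most of it from Ano1 at 86.5 FPKM. Their range was 16.2 to 93.7 in Tet1-null, 33.9 to 78.1 in double-heterozygous, 28.6 to 110 in Tdg-heterozygous and 31.2 to 47.3 FPKM in control libraries, and the defining marker Kit was at 6.38 FPKM in Tet1-null library 1, against 2.91 to 6.84 in the others. Of the 4 mesothelial markers, 3 were under 1 FPKM in all 12 libraries. Of 16 striated muscle markers in the table, 9 were under 1 FPKM in all 12. The sum of the 16 was 55.7 FPKM in Tet1-null library 1, below the 58.6 FPKM of Tet1-null library 0. Tet1-null library 1 was still the highest library for 5 of the 16. Among these 5 was Ckm, named after its values were seen, at 1.65 FPKM, against 0 to 0.106 FPKM in the other 11. In none of these lists did limma call a gene in any comparison.

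**Figure D5:**
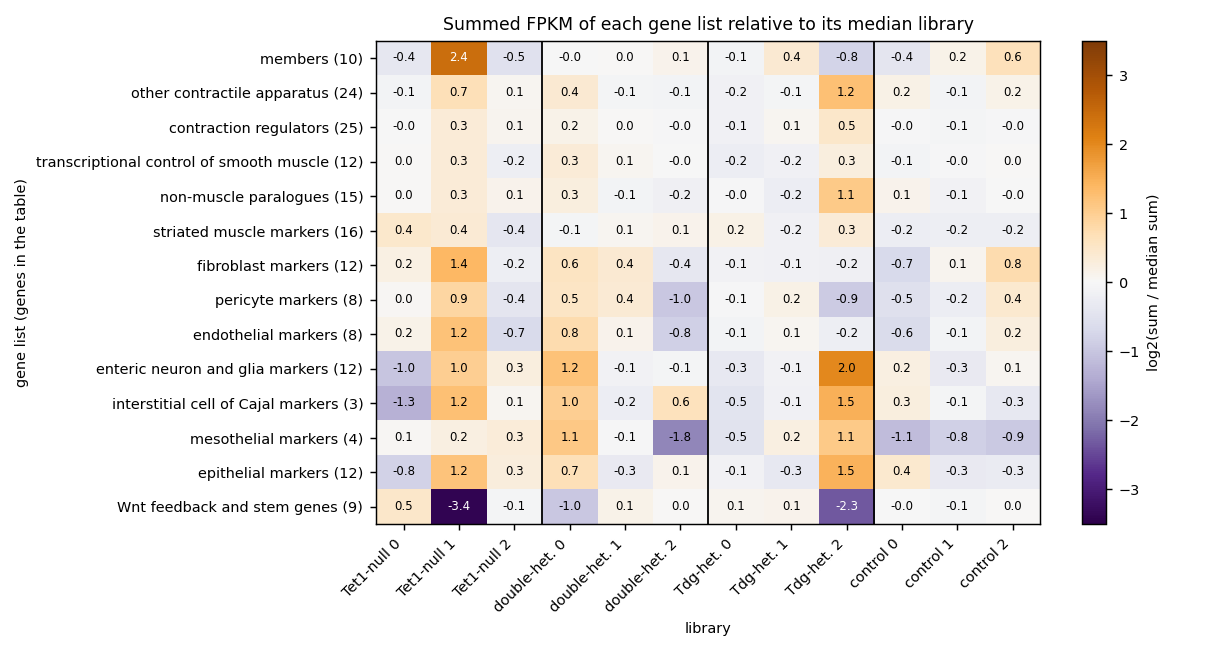
Summed FPKM of each gene list relative to its median library, as log2, with lists down the page (number of genes in brackets) and libraries across. The members reach 932 FPKM and the Wnt genes 62.1 FPKM in Tet1-null library 1, while in Tdg-heterozygous library 2 the members (101 FPKM) and the Wnt genes (129 FPKM) are both low and the epithelial markers are at 19181 FPKM.

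The libraries with low Wnt genes thus held the highest and the lowest sum of the members. Not every contractile gene followed. Tpm2 had its highest value in Tet1-null library 1 (113 FPKM) and its second highest in Tdg-heterozygous library 2 (39.8 FPKM). The 24 other contractile apparatus genes summed to 2287 and 3393 FPKM in these libraries, with 1094 and 2096 FPKM from Dstn, against 1293 to 1901 FPKM in the other 10. Tet1-null library 1 combined 932 FPKM of members with 0.700 FPKM of Notum, a Wnt feedback inhibitor, and Tdg-heterozygous library 2 combined 101 FPKM of members with 8.53 FPKM of Notum. In the other 10 libraries Notum was at 49.8 to 273 FPKM and the members summed to between 121 and 271 FPKM. Whether the makeup of the dissected tissue plays a part in either value was not tested.

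The genes nearest to the members in profile included several of the matrix. Likeness was taken as the root mean square difference, over 12 libraries, between a gene's centred log2(FPKM + 1) values and the mean profile of the members, for 9813 named genes with a mean of at least 5 FPKM. A flat profile would be 0.82 away. The members lay between 0.16 (Tagln) and 0.64 (Mylk). The nearest other genes were Cxcl12, a chemokine of stromal cells, at 0.37, Postn, the matrix protein periostin, at 0.41, Sparcl1 at 0.42, Dpt, the matrix protein dermatopontin, at 0.44, and Mfap4, a microfibril protein, at 0.46. They were followed by Ramp2, a receptor partner in endothelium, at 0.47, Vcan, the proteoglycan versican, at 0.48, Mustn1 at 0.50, Col3a1, a fibrillar collagen, at 0.50, and Copz2 at 0.52. Cxcl12 had 18.5 FPKM in Tet1-null library 1, against 3.34 to 7.36 FPKM in the other 11. Without that library 1 of these 10 genes, Cxcl12 at 0.27, was again among the nearest 10, and a flat profile was 0.43 away. The members then lay between 0.16 (Tagln) and 0.57 (Tpm2), and Des at 0.48, Mylk at 0.51 and Tpm2 were farther from the mean profile of the members than a flat one.

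Reads of some members could be shared with other genes. Of the 75-nt windows of the Tagln transcripts, 1057 of 1983 (53.3%) also lie, on either strand, in transcripts of overlapping genes, mostly Gm48529. For Des the share was 3.95% and for Mylk 3.55%, also with overlapping genes, and for the other 7, Acta2 and Actg2 among them, it was 0%. The strand of these matches was not recorded, and whether counting used the strand is not stated. Reads that fall in the shared windows of Tagln therefore cannot be assigned to a single gene here, while the remaining windows belong to Tagln alone. Pcsk7, an overlapping neighbour of Tagln, had 10.9 to 29.1 FPKM in Tet1-null, 13.5 to 20.7 in double-heterozygous, 12.5 to 25.0 in Tdg-heterozygous and 11.9 to 19.4 FPKM in control libraries.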

How the data were processed

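RNA from 12 colonic adenoma samples was sequenced as single-end reads of 75 nt from TruSeq libraries made with 500 ng of total RNA and aligned to mm10 with TopHat2, per the labels' protocols. Cufflinks and Cuffdiff are named, per the submitters' processing notes; versions and annotation are not given in the sources used here. The deposited table holds FPKM values computed by the authors, with the unit taken from the table's name (written there as FPKKM) and the tools.

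Columns were tied to groups by their letters. No scaling was added before taking log2(FPKM + 1); genes with at least 1 FPKM in at least 3 libraries were tested. The pseudocount of 1 understates changes of low genes. Limma 3.58.1 in R 4.3.3 fitted 4 group means with a variance trend (prior degrees of freedom 2.03), with Benjamini-Hochberg adjustment over the 15150 genes of each comparison. The fit was also run on simulated data with independent values and the same SD for a gene in every library. That simulation held no outlying library, so it does not bear on the effect of one. Exact permutation of 3 against 3 libraries cannot give a two-sided p under 0.1, so none was used. No 2 libraries were identical. Python 3.11.15 gave ratios, sums, likeness and motif searches.

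The members and gene lists were chosen with earlier results of these data known. The text names all 10 members, up to 4 genes of each other list with the highest mean FPKM, and the 10 nearest profiles; others are said to be chosen after their values were seen. Positions are from the mm10 gene annotation and promoters from RefSeq GRCm38.p6. A protein comparison was not analysed here, and windows shared between transcripts were used in its place.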

Additional observations from a re-analysis of the deposited data

How the results depend on the processing

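Pseudocounts of 0.1 and 5, no filter, equal totals, median-ratio scaling, library weights, only the groups compared and leaving out each library were tried, and, chosen after seeing the data, leaving out Tet1-null library 1 with Tdg-heterozygous library 2. In all 139 recomputed counts limma called 0 of the 10 members, with a lowest adjusted p of 0.2896 (Actg2, Tet1-null minus control, library weights). No paired analysis was possible because the columns are numbered 0 to 2 and the labels 1 to 3, so a column is tied to its group alone. The median member difference left out a library at a time ranged from -0.64 to 0.89 in Tet1-null minus control, from -0.59 to 1.03 in Tet1-null minus double-heterozygous and from -0.46 to 1.28 in Tet1-null minus Tdg-heterozygous, the low end each time without Tet1-null library 1. Without both libraries these medians were -0.64, -0.59 and -0.64, and with library weights the last was -0.53. In Tet1-null minus control, library weights (0.256 for Tet1-null library 1, 5.25 for Tet1-null library 2) gave Acta2 -0.50, Actg2 -1.10, Myh11 -0.96, Mylk -0.15, Myl9 -0.57, Tagln -0.57, Cnn1 -1.30, Des -1.24, Tpm2 -0.42 and Synpo2 -0.15, and called 236 of all genes, against 2 without weights. Without both libraries the values were Acta2 -0.39, Actg2 -1.12, Myh11 -0.89, Myl9 -0.45, Tagln -0.70, Cnn1 -1.36, Des -1.20 and Tpm2 -0.58, and Cnn1 was at -0.17 with a pseudocount of 0.1. Leaving out 1 library, the ranges were -0.39 to 0.65 for Acta2, -1.12 to 0.79 for Actg2, -0.89 to 1.09 for Myh11, -0.45 to 0.89 for Myl9, -0.70 to 0.95 for Tagln, -1.36 to 0.92 for Cnn1, -1.20 to 1.14 for Des and -0.58 to 1.01 for Tpm2. Control library 0 also turned signs: without it Acta2 was at -0.04, Actg2 at -0.26, Cnn1 at -0.21 and Des at -0.09. In double-heterozygous minus control, Des ranged from -0.69 to 0.18 and Tpm2 from -0.17 to 0.26 when 1 library was left out, and Tpm2 was at -0.18 with library weights. Des was positive without double-heterozygous library 1 (0.11) or control library 2 (0.18), and Tpm2 negative without double-heterozygous library 0 (-0.17) or control library 0 (-0.10). In double-heterozygous minus Tdg-heterozygous the median was -0.10 with library weights, against 0.19. The causes were not tested. The depth in reads is unknown, so no counting error can be given, and a level near 1 FPKM, as for Myh11, Cnn1, Des and Synpo2, may rest on few reads.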

Other observations

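The genes named here were chosen after their values were seen. Jph2, which couples muscle membranes to calcium stores, had 2.56 FPKM in Tet1-null library 1, against 0.335 to 1.60 FPKM in the other 11 libraries. Other calcium-handling genes gave mixed values. Casq2 at 1.80 FPKM and Atp2a2 at 109 FPKM stayed below their highest values elsewhere, 1.84 and 110 FPKM. Pln and Ryr2, both at a low level, had 0.413 and 0.119 FPKM there, against at most 0.0683 and 0.0211 FPKM elsewhere. Hspb7, a small heat-shock protein of muscle, had 1.77 FPKM there, against 0 to 0.978 FPKM. Krt20, a keratin of differentiated colonocytes, was high in both libraries with low Wnt genes, at 463 FPKM in Tet1-null library 1 and 1053 FPKM in Tdg-heterozygous library 2, against 8.72 to 337 FPKM in the other 10.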
